A study of Homo sapiens with 4 samples.

Results

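The genes described here are 33 enzymes, regulators and carriers of cholesterol and fatty acid synthesis, chosen by name, and all 33 were found among the 57746 genes of the deposited table. The study sequenced RNA of the parental line DLD1, established from a human colorectal cancer and labelled epithelial, and of its derivatives SA, SPH and METS. The labels call SA (from soft agar colonies) and SPH (from colonospheres) mesenchymal. METS, which came out of a xenograft's metastasis in the lung, carries the epithelial label, as DLD1 does. No line carries a labelled treatment or allele, and all grew in the same medium with fetal bovine serum. Each line is 1 library, so a difference between a pair of lines has no replicate check. Whether SA, SPH or METS is a single clone or a pooled population is not given in the sources used here.

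Cholesterol is built from acetyl-CoA through mevalonate, isoprenoid phosphates, squalene and lanosterol, and fatty acids are built from the same acetyl-CoA, lengthened by elongases and given double bonds by desaturases. Most of the enzymes are controlled together by the transcription factors encoded by SREBF1 and SREBF2, which INSIG1 holds in the endoplasmic reticulum when sterols are plentiful. Colorectal cancer cells, like other dividing cells, need both products for new membranes.

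Levels are in RPKM, read counts scaled to gene length and to library size, which allows genes to be compared per length. Differences are given as differences in log2(RPKM + 1), a scale on which low genes change by less than they do in RPKM. The libraries were alike in depth, at about 48.5 to 53.7 reads per kilobase at 1 RPKM as roughly estimated from the steps in the low values, which fitted only loosely, and 10920 to 11238 genes reached 1 RPKM. Of 7 markers of colonic epithelium 6 reached 1 RPKM, and LGALS4, at 0.75 RPKM or less, did not. Vimentin (VIM), a filament protein of mesenchymal cells, was near absent from DLD1 (0.18 RPKM) and METS (0.22) and reached 12.5 RPKM in SA and 12.2 in SPH. The markers of fibroblasts, endothelium, leukocytes, adipocytes and hepatocytes were at or near 0, with no gene above 0.40 RPKM, among them the adipocyte hormone gene ADIPOQ, listed at 0 in all lines. Proliferation markers summed to 503 RPKM in DLD1 and 395 in METS, against 509 in SA and 481 in SPH.

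Of the 33 genes 30 reached 1 RPKM in every line. ELOVL5 and FADS2 did so in SA and SPH alone, and FADS1 in no line. Together the 33 genes summed to 1134 RPKM in DLD1 and 1103 in METS, against 988 in SA and 1033 in SPH. These sums are 0.404% (DLD1), 0.387% (METS), 0.358% (SA) and 0.369% (SPH) of all RPKM. The lowest sum, in SA, was 87.1% of that in DLD1. The 18 sterol enzymes summed to 83.0% of the DLD1 level in SA, to 79.9% in SPH and to 92.1% in METS. The 6 genes of elongation, desaturation and phosphatidate stood at 102%, 118% and 120%, a sum made up mostly by SCD.

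**Figure D1:**
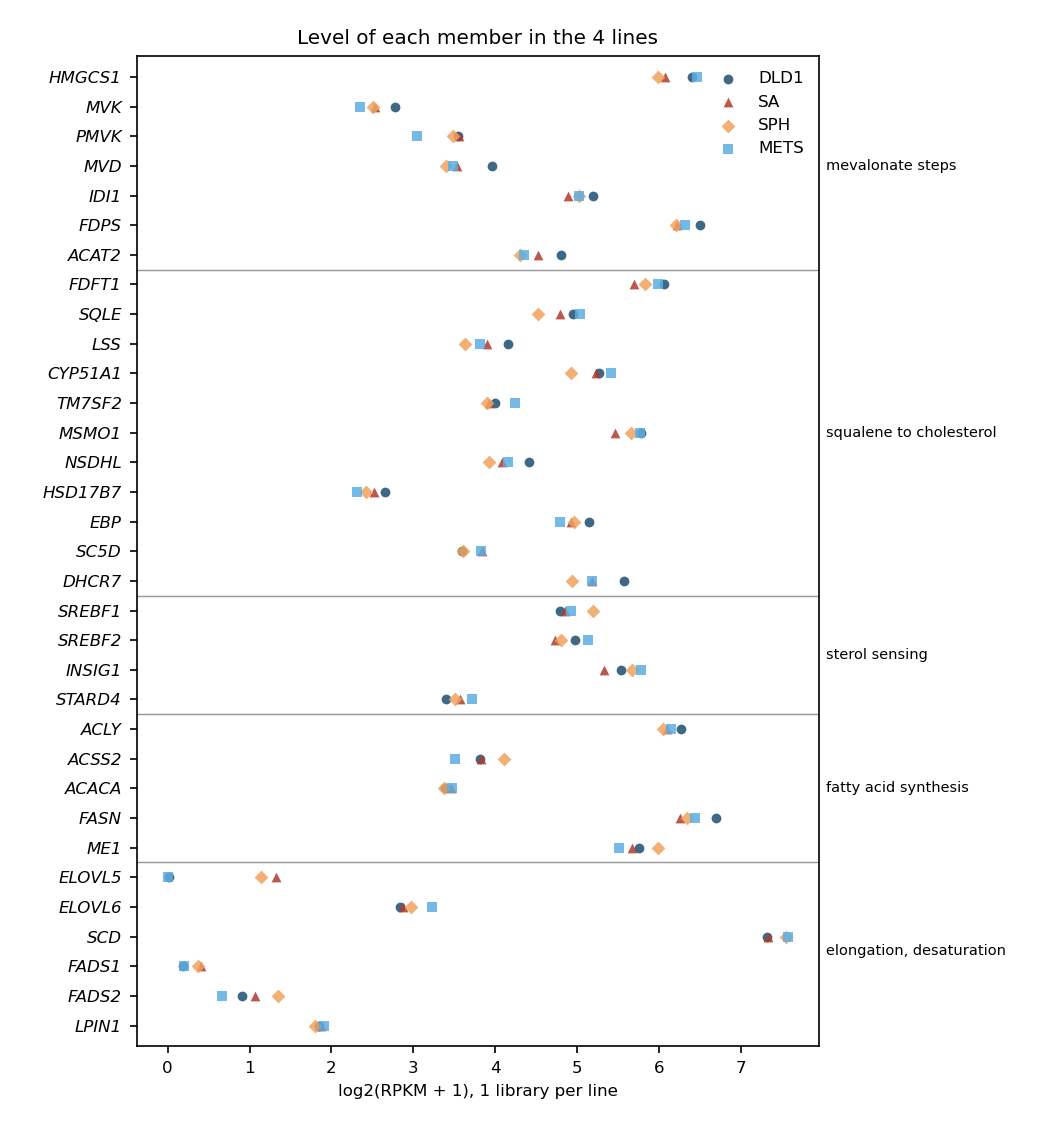
Level of each of the 33 genes in the 4 lines, as log2(RPKM + 1), with 1 point per library and the genes grouped by step of the pathway (LPIN1 is drawn with the elongases and desaturases). The points of most genes lie close together, and ELOVL5 is the gene whose lines lie farthest apart, at 1.51 and 1.21 RPKM in SA and SPH and at 0.01 and 0.00 in DLD1 and METS.

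The early steps were compared first, between the mesenchymal and the epithelial lines. HMGCS1, which joins acetoacetyl-CoA and acetyl-CoA ahead of mevalonate, stood at 83.1 RPKM in DLD1 and 87.1 in METS, against 66.3 in SA and 62.5 in SPH. Both mesenchymal lines were below both epithelial lines, at 79.8% and 75.2% of DLD1. The class difference, mesenchymal minus epithelial, was -0.40 ± 0.10 (SE, 2 lines per class), and it did not pass the test over all genes (adjusted p = 0.36, limma-trend with Benjamini-Hochberg adjustment over 11262 genes). FDPS, the farnesyl diphosphate synthase from which sterols and protein prenyl groups both derive, lay in the same order of classes at lower contrast, at 88.9 RPKM in DLD1 and 78.7 in METS, against 73.2 in SA and 72.4 in SPH.

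The other mevalonate genes did not separate the classes. MVD, the decarboxylase that forms isopentenyl diphosphate, was set apart in DLD1 alone, at 14.5 RPKM against 10.5 in SA, 9.50 in SPH and 10.1 in METS. ACAT2, the cytosolic thiolase that makes acetoacetyl-CoA, was also highest in DLD1, at 26.96 RPKM against 22.02 in SA, 18.7 in SPH and 19.4 in METS. Its SA value lay between those of DLD1 and METS. On the opposite strand, 26.5% of the exonic bases of ACAT2 overlap SOD2 (6.54 to 7.29 RPKM) and 9.2% overlap TCP1 (87.2 to 96.2 RPKM). A further gene there, SOD2-OT1, overlaps 33.9%. Whether counting used strand is not stated. The mevalonate kinase MVK (5.83 RPKM in DLD1 and 4.07 in METS, against 4.80 in SA and 4.69 in SPH) and the phosphomevalonate kinase PMVK (10.7 RPKM in DLD1 and 7.21 in METS, against 10.7 in SA and 10.2 in SPH) were lowest in METS. IDI1, the isopentenyl diphosphate isomerase, ranged from 28.5 RPKM in SA to 35.5 in DLD1.

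From squalene onwards, 7 of 11 genes had both mesenchymal values under both epithelial values (all genes tested, 13.1%). Any difference counts here, down to that of DHCR7 between SA (35.15 RPKM) and METS (35.18). SQLE, the squalene epoxidase and a rate-limiting step, stood at 29.9 RPKM in DLD1 and 31.7 in METS, against 26.6 in SA and 22.01 in SPH, a class difference of -0.33 ± 0.13 (adjusted p = 0.55, limma-trend). The lowest value was that of SPH, at 73.7% of DLD1. FDFT1, the squalene synthase, stood at 65.7 RPKM in DLD1 and 62.0 in METS, against 50.5 in SA and 55.8 in SPH. Here SA was the lowest line, at 76.8% of DLD1.

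Of the lanosterol steps, the demethylase CYP51A1 stood at 37.3 RPKM in DLD1 and 41.3 in METS, against 36.5 in SA and 29.3 in SPH, so that SA lay beside DLD1 and SPH apart from it. Its exons overlap, by 79.4% of their bases, those of AC000120.2 on the same strand. The methyl sterol oxidase MSMO1 showed the reverse, with 53.8 RPKM in DLD1 and 53.5 in METS, against 42.9 in SA and 49.2 in SPH. NSDHL, the dehydrogenase that removes the methyl groups together with MSMO1, stood at 20.2 RPKM in DLD1 and 16.7 in METS, against 15.9 in SA and 14.2 in SPH. The sterol reductase TM7SF2 was highest in METS, at 17.9 RPKM against 14.9 in DLD1, 14.1 in SA and 14.0 in SPH.

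DHCR7, the reductase of the last step to cholesterol, had the widest range among the sterol enzymes. It stood at 46.3 RPKM in DLD1 and 35.18 in METS, against 35.15 in SA and 29.6 in SPH, so the highest line was 1.57 times the lowest. SA and METS were at the same level, and the class difference of -0.32 ± 0.16 did not pass (adjusted p = 0.68, limma-trend). On the log2(RPKM + 1) scale it was the 1 sterol gene past 1.5-fold in any comparison of lines (SPH minus DLD1, -0.63). LSS, the cyclase that forms lanosterol, was highest in DLD1 at 16.8 RPKM and lowest in SPH at 11.3, with SA at 13.9 and METS at 13.1.

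The remaining late enzymes did not follow the classes. EBP, the sterol isomerase, stood at 34.2 RPKM in DLD1 and 26.7 in METS, against 29.3 in SA and 30.2 in SPH, and HSD17B7, the sterol ketoreductase, at 5.29 in DLD1 and 3.97 in METS, against 4.73 in SA and 4.34 in SPH. Both were lowest in METS. HSD17B7 has a close copy, HSD17B7P2 (6.30 to 7.70 RPKM), and reads of the pair may have been shared. SC5D, the lathosterol desaturase, was the 1 sterol enzyme with no line below DLD1, at 11.10 RPKM in DLD1 and 13.17 in METS, against 13.23 in SA and 11.13 in SPH.

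**Figure D2:**
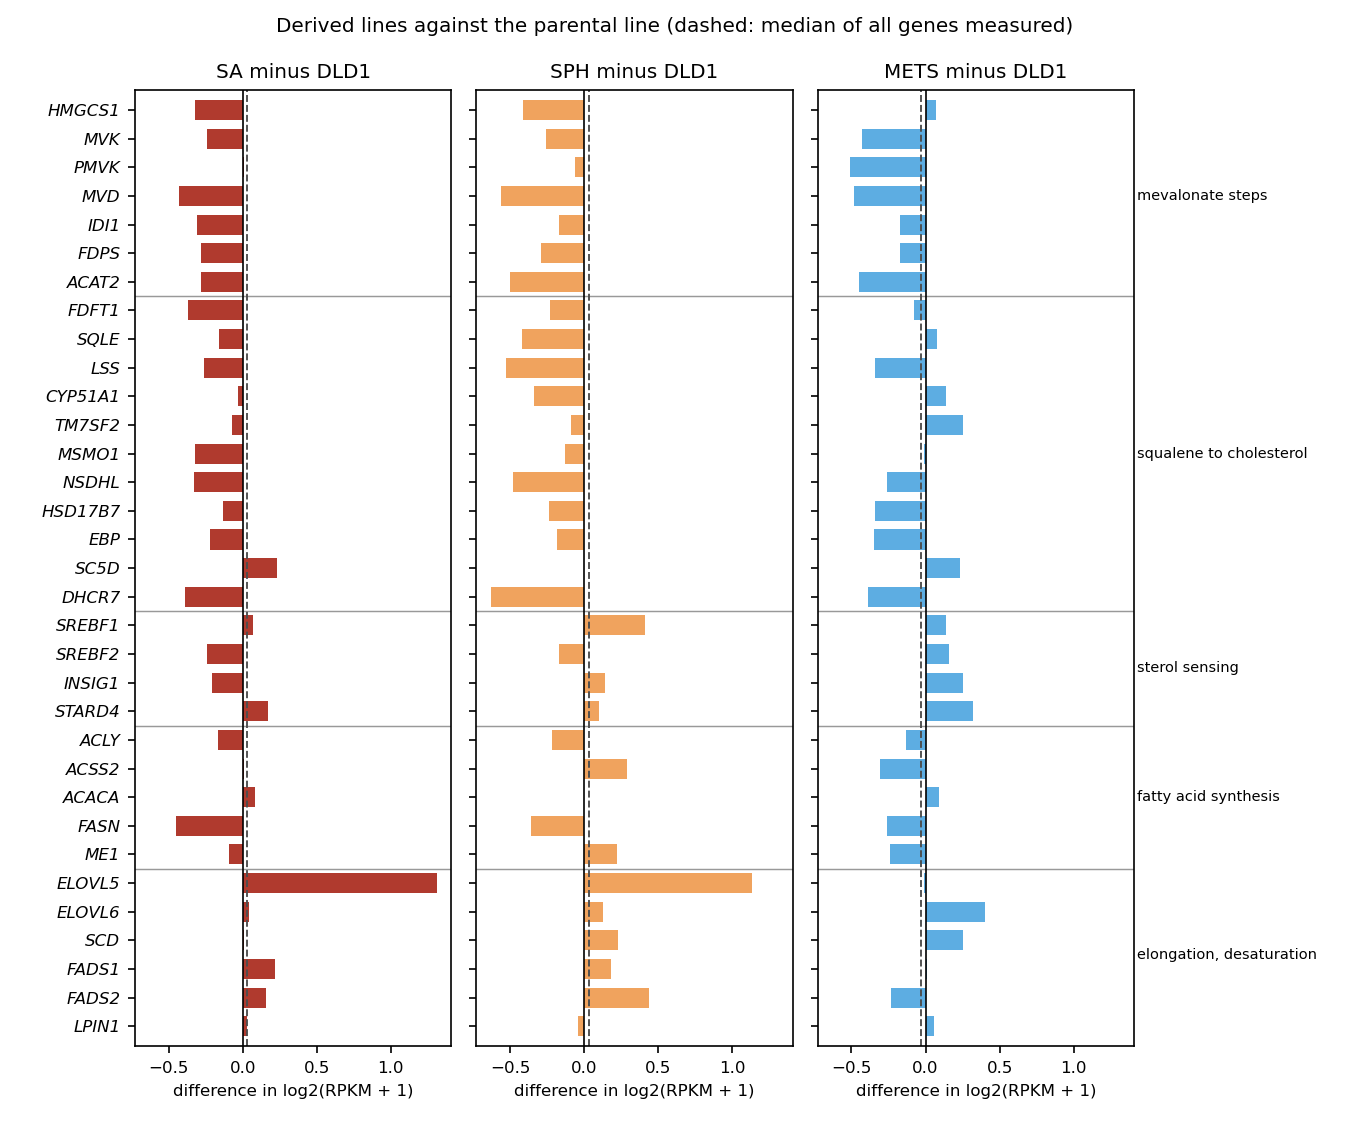
Difference in log2(RPKM + 1) between each derived line and DLD1 for the 33 genes, 1 library per line, with the median of all genes measured as a dashed line. In SA and SPH nearly all bars of the 2 sterol groups point below 0, and in METS most do, 13 of 18, with 5 above.

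Of the 32 measured genes 21 lay below DLD1 in SA (all genes measured, 44.4%) and 11 above (55.2%), and in SPH 22 lay below (43.6%) and 10 above (55.9%). Of 30 in METS 17 lay below (54.9%) and 13 above (44.7%). ELOVL5 and FADS2 passed the minimum against DLD1 only through SA or SPH, so in those lines they could only count as above. They are not among the 30 measured in METS. Counted over the 18 sterol enzymes, 16 lay below DLD1 in SA, 17 did in SPH, and 13 did in METS. Their medians on the log2 scale were -0.27, -0.28 and -0.22, against medians over all genes of 0.03, 0.03 and -0.03. The 3 comparisons share the 1 DLD1 library, so they are not separate evidence. A comparison without DLD1 is that of METS with SPH, where 13 of the 18 were higher in METS (all genes, 40.8%, with 58.8% lower), with a median of 0.14 against -0.05. Between METS and SA 10 of the 18 were higher in METS (all genes, 40.5%, with 59.1% lower), with a median of 0.03. ELOVL5 was the 1 gene of the 32 lower in METS than in SA by 1.5-fold (all genes, 3.75%), and none was higher by that much (all genes, 2.73%). ELOVL5 passed the minimum here only through SA, where it was high. Proliferation markers were lowest in METS, and their part in these values was not tested.

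Over all 32 genes tested, 12 had both mesenchymal values under both epithelial values (all genes tested, 13.1%). They were HMGCS1, FDPS, FDFT1, SQLE, CYP51A1, TM7SF2, MSMO1, NSDHL, DHCR7, SREBF2, ACLY and FASN. The count takes any difference, and for DHCR7 SA and METS were at the same level. In the opposite direction there were 3, ACSS2, ELOVL5 and FADS2 (all genes, 24.7%), of which ELOVL5 and FADS2 reached the minimum only in SA and SPH. With median-of-ratios factors the first count was 16 (all genes, 22.2%). Without METS it was 19 of 32 (all genes, 29.2%), since 1 epithelial line then has to be undercut in place of 2. None of the 12 passed the class test, in which 4 of 11262 genes passed as lower (0.0355%), and HMGCS1, SQLE and SREBF2 had an unadjusted p under 0.05 (all genes in that direction, 3.45%). In the opposite direction ELOVL5 and FADS2 had one too (all genes, 5.19%), but both reached the minimum only in SA and SPH, so nothing is read from that count.

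**Figure D3:**
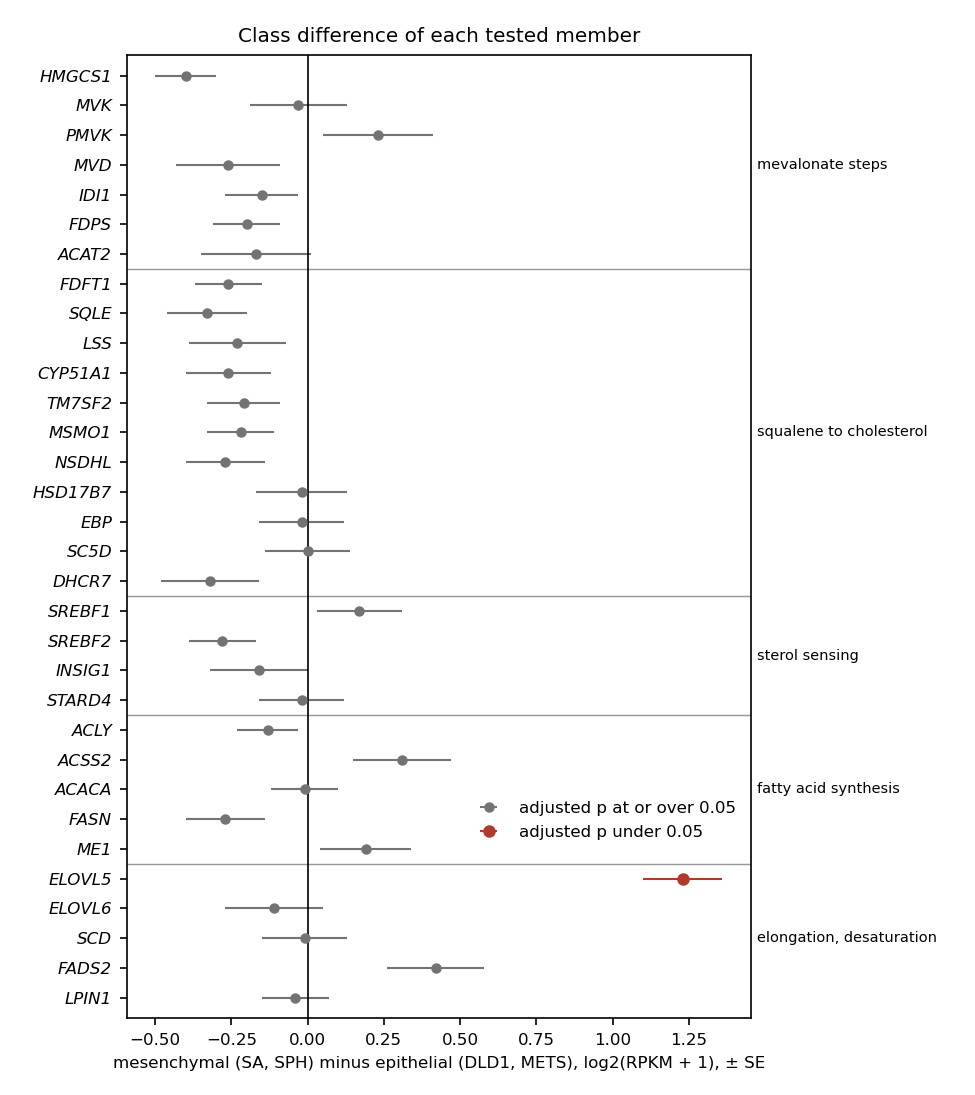
Class difference of the 32 tested genes, SA and SPH minus DLD1 and METS, in log2(RPKM + 1) with its SE from limma-trend, 2 lines per class. ELOVL5, at 1.23, is the 1 gene past adjusted p 0.05, and most sterol enzymes lie between -0.40 and 0.

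Of the regulators and carriers, SREBF2 was the 1 gene that separated the classes. SREBF2, which encodes the factor that chiefly drives sterol genes, stood at 30.3 RPKM in DLD1 and 33.9 in METS, against 25.6 in SA and 26.9 in SPH. Both mesenchymal lines were below both epithelial lines, with a class difference of -0.28 ± 0.11 (adjusted p = 0.56, limma-trend). SREBF1, whose product chiefly drives fatty acid genes, was highest in SPH, at 35.4 RPKM against 26.5 in DLD1, 27.9 in SA and 29.3 in METS. INSIG1, itself induced by the factors it retains, stood at 45.2 RPKM in DLD1 and 53.95 in METS, against 39.0 in SA and 49.8 in SPH. STARD4, a carrier of sterols between membranes, was highest in METS at 12.1 RPKM, with 9.55 in DLD1, 10.8 in SA and 10.3 in SPH. All 4 regulators and carriers were above DLD1 in METS (all genes, 44.7%), where the median of the 4 was 0.20.

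Promoter stretches are shown because the factors encoded by SREBF1 and SREBF2 act together with the factor that binds CCAAT boxes. Sequences are from RefSeq (GRCh38.p14), a build other than that of the deposited values, and 29 of the 33 genes had an entry. The 250 bases before each gene's start were searched on both strands for the sterol regulatory element (the capitals of the first sequence), for a looser form that it contains, TCACNCCAC, and for CACGTG, for CCAAT and for TATAAA. The sterol element was found in the SREBF2 promoter and in no other of the 29, against 0.0342% of all 35116 promoters (0.883% for the looser form, also SREBF2 alone). CCAAT was found in 18 of 29 against 32% of all promoters, CACGTG in 3 (ELOVL5, INSIG1 and SC5D) against 6.34%, and TATAAA in 2 (HMGCS1 and INSIG1) against 10.7%. For the 29 genes only the most upstream entry was counted, while the shares over all promoters count every entry, so the 2 sets were built differently. A match is a run of letters and not a measured binding site. The 250 bases of SREBF2, HMGCS1, INSIG1 and ELOVL5, from which windows are shown, overlap annotated exons of the same genes. A stretch before the start used here can therefore lie within an exon. Other forms of the sterol element, and bases outside these 250, were not searched, so a missing match does not show its absence. Windows of 30 bases are given 5′ to 3′ on the strand of the gene, with the match in capitals, where ATTGG is CCAAT read from the other strand.
SREBF2 sterol element, chr22:41832961-41832990, plus strand: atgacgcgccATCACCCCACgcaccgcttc
SREBF2 CCAAT, chr22:41832987-41833016, plus strand: cttcgctcgcccATTGGctgagatgagcct
HMGCS1 CCAAT, chr5:43313550-43313579, minus strand: agtttccttttgATTGGtagaagccggact
HMGCS1 CCAAT, chr5:43313495-43313524, minus strand: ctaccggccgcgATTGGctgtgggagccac
HMGCS1 TATA box, chr5:43313424-43313453, minus strand: tgggttggcggcTATAAAgctggtggcgaa
INSIG1 CCAAT, chr7:155297696-155297725, plus strand: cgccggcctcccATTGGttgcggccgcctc
INSIG1 CACGTG, chr7:155297811-155297840, plus strand: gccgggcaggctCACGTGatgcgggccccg

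Among the genes of acetyl-CoA supply and fatty acid synthesis, FASN and ACLY, the most abundant, stood lower in SA and in SPH than in either epithelial line. FASN, the fatty acid synthase, stood at 102 RPKM in DLD1 and 85.2 in METS, against 74.9 in SA and 79.6 in SPH, so DLD1 stood above all derived lines. Its class difference was -0.27 ± 0.13 (adjusted p = 0.62, limma-trend). ACLY, the citrate lyase that releases acetyl-CoA in the cytosol, stood at 76.1 RPKM in DLD1 and 69.6 in METS, against 67.4 in SA and 65.1 in SPH. ACACA, the acetyl-CoA carboxylase that commits carbon to fatty acids, was level, at 9.39 to 10.1 RPKM. The ACLY promoter is printed whole, since no annotated exon of GENCODE 29 falls within it, and its 2 CCAAT boxes are in capitals.
ACLY promoter, chr17:41919023-41919272, minus strand: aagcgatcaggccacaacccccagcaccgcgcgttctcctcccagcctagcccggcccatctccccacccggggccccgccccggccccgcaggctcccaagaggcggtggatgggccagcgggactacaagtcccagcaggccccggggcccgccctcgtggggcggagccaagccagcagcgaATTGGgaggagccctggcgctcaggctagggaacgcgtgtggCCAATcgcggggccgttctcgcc

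ACSS2 and ME1 differed from FASN and ACLY. ACSS2, which makes acetyl-CoA from acetate, stood at 13.1 RPKM in DLD1 and 10.4 in METS, against 13.2 in SA and 16.3 in SPH (class difference 0.31 ± 0.16, adjusted p = 0.67, limma-trend). ME1, the malic enzyme that supplies NADPH, stood at 53.0 RPKM in DLD1 and 44.7 in METS, against 49.8 in SA and 62.1 in SPH. Both were highest in SPH and lowest in METS. Against SPH, METS had ACSS2 lower by more than 1.5-fold (-0.60), as were ELOVL5 and FADS2, 3 of 32 genes (all genes, 5.77%), and no gene was higher by that much (all genes, 3.09%). ELOVL5 and FADS2 passed the minimum here only through SPH, where they were high, so nothing is read from the count of 3.

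SPH and SA, the mesenchymal lines, were also set side by side. Of the 18 sterol enzymes 14 were lower in SPH than in SA (all genes, 48.3%, with 51.2% higher), with a median of -0.09 against 0.01. SREBF1 (0.34), INSIG1 (0.35), ACSS2 (0.28), ME1 (0.31), FADS2 (0.28) and SCD (0.23) were higher in SPH on the log2 scale. No gene differed by 1.5-fold between SA and SPH (all genes, 1.23% higher and 0.621% lower). With 1 library per line these differences cannot be told apart from the spread between cultures.

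ELOVL5 was the 1 gene of the 33 past adjusted p 0.05 in the class test, which it entered only through SA and SPH, the lines where it is high, so that it had to differ. It encodes the elongase that lengthens polyunsaturated fatty acids, acting between the desaturases of FADS2 and FADS1. It stood at 1.51 RPKM in SA and 1.21 in SPH, at 0.01 in DLD1, and is listed at 0 in METS. Over the 3813 exonic bases of the GENCODE 29 model this is about 279 and 244 reads in SA and SPH and about 2 reads in DLD1, approximate numbers, as the length used by the authors is not given. The class difference was 1.23 ± 0.13 on the log2 scale (adjusted p = 0.035, limma-trend), with SA and SPH each above DLD1 and METS (4 of 4 pairs), and 36 of 11262 genes passed in that direction (0.32%). Because the minimum chose it by its high lines, its values are a description and this p is no support for a class difference.

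The adjusted p of ELOVL5 ranged from 0.02 to 0.11 over the alternatives in which it was tested, and it missed the threshold with no filter on low values (0.11) and without METS (0.07, limma-trend). Without SA or without SPH it fell under the minimum and was not tested. Of the neighbouring protein-coding genes, GCLC on one side stood at 7.08 RPKM in DLD1 and 8.72 in METS, against 8.04 in SA and 8.61 in SPH, without separating the classes. FBXO9, on the other side, stood at 6.59 RPKM in DLD1 and 6.41 in METS, against 7.46 in SA and 7.77 in SPH. It too was higher in both mesenchymal lines (all genes tested, 24.7%). So were GSTA4 (0.44 and 0.45 against 0.54 and 0.63) and KLHL31 (0.20 and 0.22 against 0.26 and 0.24), both under 1 RPKM. ICK was highest in METS, at 11.88 RPKM against 4.54 in DLD1, 4.74 in SA and 5.09 in SPH. LRRC1 was also highest in METS, at 14.13 RPKM against 12.37 in DLD1, 12.93 in SA and 12.98 in SPH. GCM1, which lies between FBXO9 and ELOVL5, did not exceed 0.01 RPKM.

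Stretches of the ELOVL5 promoter are shown with their matches in capitals, as its lines lay farthest apart of the 33 genes.
ELOVL5 CACGTG, chr6:53349144-53349173, minus strand: atttcccagagaCACGTGgaaccgaggggc
ELOVL5 CCAAT, chr6:53349055-53349084, minus strand: tattgtcccgcgATTGGctcccgggccgca
ELOVL5 CCAAT, chr6:53349001-53349030, minus strand: cttcgggtcccgATTGGctggccgcgccat

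The desaturases that act beside ELOVL5 were low and leaned the same way. FADS2 stood at 0.87 RPKM in DLD1 and 0.59 in METS, against 1.09 in SA and 1.54 in SPH. The class difference was 0.42 ± 0.16 and did not pass (adjusted p = 0.55, limma-trend), and FADS2 too reached 1 RPKM in SA and SPH alone. FADS1 stood at 0.33 RPKM in SA and 0.29 in SPH against 0.14 in DLD1 and 0.15 in METS, under the minimum for the test. The exons of FADS1 and FADS2 overlap on opposite strands over 490 bases, and FADS2 shares 49 bases with FEN1 (25.98 to 32.5 RPKM), so small values of this pair are uncertain.

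**Figure D4:**
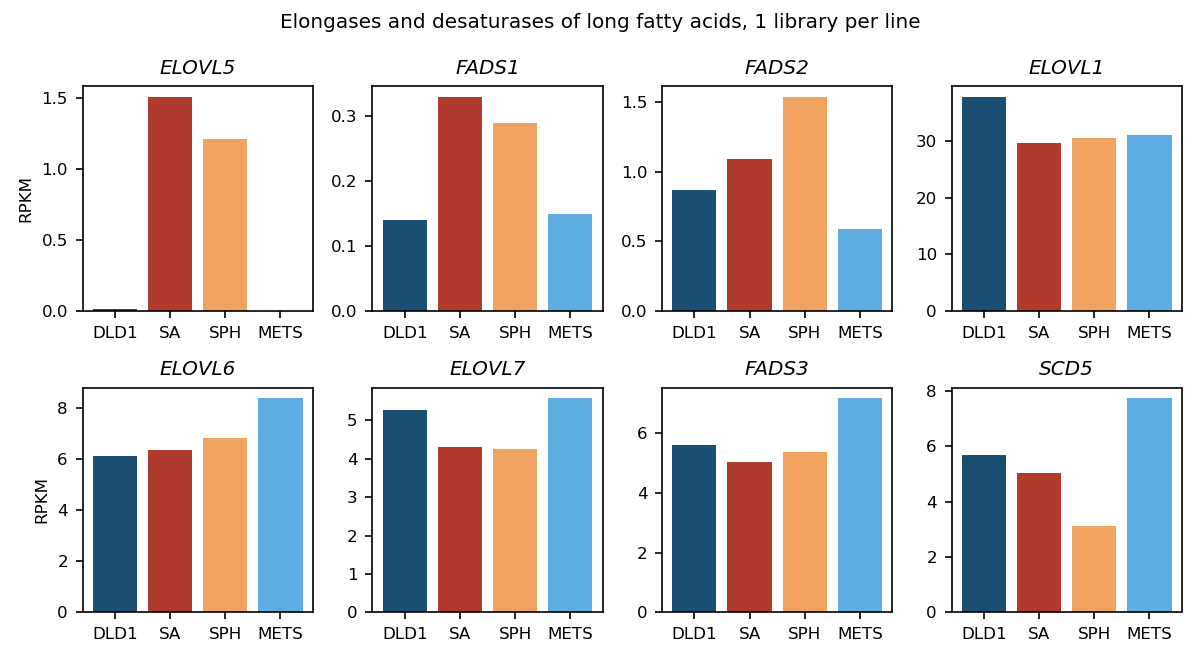
RPKM of ELOVL5, FADS1, FADS2 and 5 other elongases and desaturases in the 4 lines, 1 library per line, each panel with its own axis from 0. ELOVL5, FADS1 and FADS2 are higher in SA and SPH than in DLD1 and METS, and ELOVL7, FADS3 and SCD5 are lower.

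SCD and ELOVL6 were more abundant and did not follow the classes. SCD, which makes oleate and palmitoleate, was the most abundant of the 33 genes, at 158.01 RPKM in DLD1 and 188.7 in METS, against 158.59 in SA and 185.7 in SPH. SPH and METS lay above DLD1 and SA, across the classes. ELOVL6, the elongase of saturated chains, was highest in METS at 8.39 RPKM, against 6.13 in DLD1, 6.35 in SA and 6.82 in SPH. LPIN1, a phosphatidate phosphatase, was level at 2.49 to 2.74 RPKM. Of relatives outside the list, looked at after the values of ELOVL5 were seen, ELOVL2 and ELOVL4 are listed at 0 in every line, and ELOVL3, at 0.69 RPKM in DLD1 and 0.20 in METS against 0.96 in SA and 1.27 in SPH, was higher in both mesenchymal lines and too low for the test. FADS3 stood at 5.60 RPKM in DLD1 and 7.18 in METS, against 5.03 in SA and 5.37 in SPH.

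In METS against DLD1 no gene of the 33 was past 1.5-fold (all genes, 2.19% higher and 3.22% lower), of 30 measured. PMVK (-0.51), MVD (-0.48), ACAT2 (-0.45) and MVK (-0.43) lay lowest and ELOVL6 (0.40) and STARD4 (0.32) highest. Of the 7 mevalonate genes 6 were below DLD1 (all genes, 54.9%), with HMGCS1 the exception. In SA against DLD1 ELOVL5 was the 1 gene past 1.5-fold (all genes, 1.43% higher and 1.4% lower), and in SPH ELOVL5 was higher and DHCR7 lower (all genes, 2.59% and 1.98%). The ELOVL5 count in both rests on a gene that passed the minimum only where it was high.

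METS was the lowest of the 4 lines for 8 of 32 genes, against 39.4% of all genes tested, and the highest for 11, against 23.8%. The 11 were HMGCS1, SQLE, CYP51A1, TM7SF2, SREBF2, INSIG1, STARD4, ACACA, ELOVL6, SCD and LPIN1. DLD1 was the highest for 14 (all genes, 21.6%) and SPH the lowest for 13 (all genes, 19.9%), among them 10 sterol enzymes. DLD1 was the lowest for 5 (all genes, 24.3%). SA was the lowest for 6 (all genes, 15.6%) and the highest for 3 (all genes, 23.7%), PMVK, SC5D and ELOVL5. SPH was the highest for 4, SREBF1, ACSS2, ME1 and FADS2 (all genes, 30%). ELOVL5 and FADS2 reached the minimum only in SA and SPH. Their lowest line therefore had to be DLD1 or METS, and their highest SA or SPH. Both were lowest in METS, so nothing is read from the counts of METS lowest, SA highest and SPH highest.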

How the data were processed

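RNA-seq values of 4 lines with 1 library each were used. The authors deposited 1 table of values with 2 decimals, read here as RPKM from the values (column sums from 275639 to 284919, and sums of value times exon length in kb from 914798 to 925835). The submitters' processing notes name hg19 as genome. For the aligner, the counter and its strand setting and the gene models, the answer is the same: not given in the sources used here. All 33 genes were matched by symbol. The genes, lists and tests were chosen with earlier results of these data known. Pairs of lines were compared over genes whose higher library reached 1 RPKM, with a rule of 1.5-fold on log2(RPKM + 1). For the labelled classes, limma-trend (version 3.58.1, under R 4.3.3) was run on the 11262 genes that reached 1 RPKM in 2 or more libraries, after a test on simulated data. Its p-values measure the spread between different lines, not cultures. Outside the 33, up to 3 genes per list with the largest class difference are named, and close copies or overlapping genes. Relatives and neighbours of ELOVL5 are named too, as are ABCA1 and ABCG1. Exon lengths and overlaps came from GENCODE 29, promoters from RefSeq. Python 3.11.15 and pandas 2.3.3 were used.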

Additional observations from a re-analysis of the deposited data

How the results depend on the processing

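The count of genes past the class test was 1 (ELOVL5), and 0 with no filter on low values, 0 with a minimum of 5 RPKM, which leaves ELOVL5 untested, and 0 to 1 when a library was left out (1 without DLD1), a fit in which the lone line of a class is assumed to vary like the others. Genes past 1.5-fold in SA numbered 1, and 0 with a pseudocount of 5, with a minimum of 5 RPKM or with a mean of at least 1 RPKM over the libraries, a filter added after seeing the data. In SPH they numbered 2 of 32, against 1 with a 2-fold rule, 4 with a pseudocount of 0.1 (2 of them higher) and 3 with median-of-ratios factors. They numbered 0 with a pseudocount of 5, 1 of 29 with a minimum of 5 RPKM and 1 of 31 with the mean filter. No share over all genes is given for these alternatives, so the counts show only their dependence on the setting. The count lower in both mesenchymal lines, 12 of 32 (all genes, 13.1%), was 14 to 19 without a library, where 1 line fewer has to be set apart. It was 14 of 30 without SPH (all genes, 23.6%) and 17 of 30 without SA (25.7%). Without DLD1 it was 18 of 32 (29.1%), and without METS 19 of 32 (29.2%). Further elongation and activation genes past the class test numbered 0, and 0 to 2 without a library (2 without DLD1). The sign of the class difference of SC5D turned with median-of-ratios factors (-0.07). It also depended on 1 library for MVK (-0.25 to 0.18), PMVK (-0.03 to 0.48), ACAT2 (-0.39 to 0.06), HSD17B7 (-0.19 to 0.15), EBP (-0.20 to 0.15), SC5D (-0.11 to 0.12), SREBF1 (-0.00 to 0.34), INSIG1 (-0.33 to 0.01), STARD4 (-0.18 to 0.13), ACACA (-0.05 to 0.04), ELOVL6 (-0.31 to 0.09), SCD (-0.14 to 0.12) and LPIN1 (-0.07 to 0.00). The cause was not tested. The medians in SA, SPH and METS kept their sign under every alternative. No paired analysis was possible because each line has 1 library and the labels give no replicate numbers. Depth is a rough estimate, and the 0.01 RPKM of ELOVL5 in DLD1 is about 2 reads.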

Other observations

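In 7 other lists of lipid genes no gene passed the class test (limma-trend). An unadjusted p under 0.05 was found for 2 fatty acid oxidation genes and 1 liver X receptor gene, higher in the mesenchymal lines (all genes, 5.19%), and for 2 elongation and activation genes, lower (all genes, 3.45%). Of 11 fatty acid oxidation genes 10 had a class difference above 0 (all genes, 6821 of 11262), with a median of 0.09, and 6 had both mesenchymal values above both epithelial values (all genes, 24.7%). CPT1A, the carnitine transferase that admits fatty acids to mitochondria, stood at 3.57 RPKM in DLD1 and 8.20 in METS, against 8.54 in SA and 12.4 in SPH, above DLD1 in all derived lines. SLC25A20, the carnitine carrier, stood at 5.16 RPKM in DLD1 and 4.04 in METS, against 6.62 in SA and 8.18 in SPH (class difference 0.59 ± 0.15, adjusted p = 0.37, limma-trend). ACADVL, the first dehydrogenase for very long chains, stood at 67.5 RPKM in DLD1 and 67.3 in METS, against 77.3 in SA and 88.2 in SPH.

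Of 11 isoprenoid branch genes (median 0.07) 4 were higher in both mesenchymal lines (all genes, 24.7%) and none was lower in both (all genes, 13.1%), with GGPS1, the geranylgeranyl diphosphate synthase, at 6.04 RPKM in DLD1 and 6.39 in METS, against 7.02 in SA and 8.26 in SPH. PDSS2 stood at 5.65 RPKM in DLD1 and 6.08 in METS, against 6.64 in SA and 7.29 in SPH. FNTA, a farnesyltransferase subunit, stood at 6.49 RPKM in DLD1 and 7.02 in METS, against 7.19 in SA and 8.11 in SPH. The liver X receptor gene NR1H3 stood at 2.02 RPKM in DLD1 and 1.54 in METS, against 2.45 in SA and 3.26 in SPH. MYLIP, which liver X receptors induce, stood at 6.14 RPKM in DLD1 and 7.33 in METS, against 7.89 in SA and 8.88 in SPH, with a list median of 0.28 over 3 tested genes. The other tested gene, NR1H2, had a class difference of 0.07. ABCA1 and ABCG1, also of this list, did not exceed 0.10 RPKM in any line and were too low for the test. Further elongation and activation genes had a median of -0.18 over 11 tested, with SCD5 at 5.68 RPKM in DLD1 and 7.74 in METS, against 5.03 in SA and 3.14 in SPH. The acyl-CoA synthetase ACSL5 stood at 31.4 RPKM in DLD1 and 11.2 in METS, against 26.5 in SA and 24.3 in SPH. Another synthetase, ACSL1, went the other way in METS, at 12.8 RPKM against 5.62 in DLD1, 7.09 in SA and 6.52 in SPH. Of SREBP processing genes, 4 of 9 class differences were above 0 (all genes, 6821 of 11262). Cholesterol transport and storage (0.01 over 8) and glycerolipid synthesis (0.00 over 8) lay near the median of all genes, 0.04. TMEM97, of the first of these lists, was lowest in SPH at 14.1 RPKM, and PNPLA2, of the other, was highest in METS at 46.6 RPKM.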
